A study of Mus musculus with 12 samples.

Results

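A set of 8 genes for transporters of the ATP-binding cassette (ABC) family was followed through a change of culture medium in Min6, an insulin-producing line grown from a mouse insulinoma and used as a stand-in for pancreatic beta cells. They are Abcb1a, Abcb1b, Abcg2, Abcb4, Abcb6, Abcc4, Abcc5 and Abcc1. They had been grouped as efflux transporters that were lower after serum-free culture, so they were chosen by their values in the defined condition against the classic condition on these arrays, and those values are given here as a description. Each gene was read from the rows of the array that carry its symbol and no other, which gave 1 row per gene, and they make up 8 of the 19938 genes so named. The group name held for 6 of the 8 and went against the data for Abcc1 and Abcc5, whose values in the defined condition were not lower than in the classic condition beyond the spread between arrays.

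Cells under the return condition (RC) were kept in serum at 20% oxygen for 5 days, then without serum at 5% oxygen for 5 days, and then back in serum at 20% oxygen for the last 5 days. Under the defined condition (DC) the final 10 of 15 days were serum-free, in DMEM-F12 with apo-transferrin, progesterone, putrescine and selenite at 5% oxygen. Under the classic condition (CC) cells stayed for all 15 days in DMEM with 15% fetal calf serum and 2-mercaptoethanol at 20% oxygen. All media held penicillin and streptomycin, and Min6 is 1 tumour cell line. Each condition had 4 arrays, described as quadruplicates from a single experiment, so the tests measure the spread between these samples, which may be technical. Serum, oxygen, basal medium and supplements changed together and cannot be told apart. RC cells had 5 serum-free days and DC cells 10, so a comparison of them holds both the return and the length of the exposure.

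Values are log2 expression values, 1 per row and array, over 35556 rows. Array medians lay between 7.92 and 8.05, and interquartile ranges between 2.42 and 2.75, with RC 3, DC 4 and DC 2 the narrowest (2.42, 2.44 and 2.47). The array RC 3 stood apart in its mean correlation with the other arrays of its condition, 0.976 where the other 3 RC arrays had 0.989 to 0.990. Of 14 measured beta-cell markers, 13 lay above the median of all values, and their mean level was 11.56 to 11.70 on RC, 11.70 to 11.78 on DC and 11.68 to 11.71 on CC arrays. None of 12 endothelial markers lay above that median. Their mean levels were 7.19 to 7.51 on RC, 7.25 to 7.45 on DC and 7.17 to 7.32 on CC arrays. Of the other lists, 4 of 10 fibroblast, 3 of 8 exocrine, 2 of 9 immune and 2 of 7 hepatocyte markers lay above it. No endothelial, fibroblast, immune or exocrine marker passed the test in any comparison. Of the beta-cell markers, Nkx2-2 and Slc30a8 rose in DC against CC (0.29 and 0.31, limma adjusted p = 0.0186 and 0.0404) and fell in RC against DC (-0.34 and -0.45, adjusted p = 0.0174 and 0.00916), and Chgb fell in DC (-0.29, adjusted p = 0.0139). Of 7 hepatocyte markers 1 passed, Ttr, which islet cells also make, and which fell in DC (-0.55, adjusted p = 0.00219) and in RC against CC (-0.47, adjusted p = 0.032). The DC call of Nkx2-2 was lost without CC 1, CC 4 or DC 4, that of Chgb without CC 4 or DC 2, and that of Slc30a8 without any 1 CC array, DC 2 to DC 4, RC 1 or RC 2. Also lost were the RC against DC call of Nkx2-2 without RC 1 or RC 4, and the RC against CC call of Ttr without any 1 CC array, RC 1, RC 2 or RC 4. The part of these markers in the results below was not tested. These are bulk samples, in which fewer cells that express a gene and less RNA per cell cannot be told apart.

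ABC exporters bind ATP on paired cytoplasmic domains and use its hydrolysis to turn a membrane channel outward, carrying drugs, lipids, conjugates or signalling molecules out of the cytoplasm. Most are single chains with both ATP-binding domains, whereas Abcb6 and Abcg2 carry only 1 such domain and work as dimers. P-glycoproteins, Abcg2 and the Abcc group are best known for multidrug resistance of tumour cells. In the beta cell the best known member of the family is no exporter but Abcc8, the sulfonylurea receptor of the ATP-sensitive potassium channel.

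Promoters are printed for 5 of the genes that were lower in DC and for Abcc5, which was not lower beyond the spread between arrays. Their letters can so be set side by side. They are RefSeq sequences of assembly GRCm38.p6, 250 bases before to 50 bases after the annotated start, on the strand of the gene. RefSeq held 10 such promoters for 7 of the 8 genes, all but Abcc1. Capitals mark matches on either strand to 5 motifs: ACGTG (known from hypoxia response elements and E-boxes), GCGTG (the core of the xenobiotic response element), TGACNNNGC (the antioxidant response element), CCAAT (the nuclear factor Y box) and GGGCGG (the GC box). They are Abcb1a (chr5:8566841-8567140, plus strand), Abcb1b (chr5:8797897-8798196, plus), Abcb4 (chr5:8893471-8893770, plus), the first listed start of Abcc4 (chr14:118706170-118706469, minus), the third listed start of Abcg2 (chr6:58640296-58640595, plus) and Abcc5 (chr16:20426345-20426644, minus).
Abcb1a: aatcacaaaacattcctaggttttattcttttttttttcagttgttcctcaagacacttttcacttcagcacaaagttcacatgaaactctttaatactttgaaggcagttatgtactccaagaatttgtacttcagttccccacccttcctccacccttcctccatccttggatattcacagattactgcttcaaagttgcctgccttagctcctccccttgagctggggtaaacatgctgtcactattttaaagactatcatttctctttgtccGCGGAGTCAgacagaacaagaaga
Abcb1b: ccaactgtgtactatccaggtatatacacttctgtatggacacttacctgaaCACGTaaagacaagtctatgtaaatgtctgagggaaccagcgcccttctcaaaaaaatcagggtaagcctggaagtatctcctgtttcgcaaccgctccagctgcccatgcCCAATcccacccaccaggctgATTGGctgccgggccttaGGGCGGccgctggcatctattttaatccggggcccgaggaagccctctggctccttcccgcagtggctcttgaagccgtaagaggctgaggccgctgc
Abcb4: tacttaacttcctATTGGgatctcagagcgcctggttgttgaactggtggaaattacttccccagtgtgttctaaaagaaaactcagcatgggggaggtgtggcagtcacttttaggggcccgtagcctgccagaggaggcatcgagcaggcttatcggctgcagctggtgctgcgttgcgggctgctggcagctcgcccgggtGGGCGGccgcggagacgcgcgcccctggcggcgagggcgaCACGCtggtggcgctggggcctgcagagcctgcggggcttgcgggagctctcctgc
Abcc4: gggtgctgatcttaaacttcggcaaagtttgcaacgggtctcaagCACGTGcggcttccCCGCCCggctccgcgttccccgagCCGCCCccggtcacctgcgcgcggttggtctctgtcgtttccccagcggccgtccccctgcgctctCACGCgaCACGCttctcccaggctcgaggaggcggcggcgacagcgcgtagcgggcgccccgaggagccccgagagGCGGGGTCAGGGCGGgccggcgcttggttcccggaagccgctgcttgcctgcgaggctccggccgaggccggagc
Abcg2: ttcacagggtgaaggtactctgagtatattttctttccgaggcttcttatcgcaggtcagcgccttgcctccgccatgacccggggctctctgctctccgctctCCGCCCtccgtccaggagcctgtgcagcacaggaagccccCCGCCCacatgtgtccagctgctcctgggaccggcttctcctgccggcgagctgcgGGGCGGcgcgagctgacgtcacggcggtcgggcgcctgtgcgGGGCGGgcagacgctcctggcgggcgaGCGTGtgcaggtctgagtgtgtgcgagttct
Abcc5: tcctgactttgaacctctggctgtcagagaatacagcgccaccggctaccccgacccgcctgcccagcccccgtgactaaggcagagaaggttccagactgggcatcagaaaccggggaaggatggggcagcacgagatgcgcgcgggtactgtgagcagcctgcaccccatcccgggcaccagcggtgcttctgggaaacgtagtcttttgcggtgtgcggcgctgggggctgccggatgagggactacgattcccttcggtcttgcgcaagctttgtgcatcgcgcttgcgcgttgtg

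The promoters of the 3 neighbouring genes on chromosome 5 differed in their base composition. That of Abcb1a had 40.3% G and C and 2 CpG dinucleotides, that of Abcb1b 55.0% and 12, and that of Abcb4 64.0% and 21, beside medians of 52.7% and 7 over 32851 mouse promoters of the same length. Abcc4 had 72.7% G and C with 41 CpG dinucleotides, Abcg2 67.0% with 28 and Abcc5 63.0% with 24. The other listed starts of Abcc4 and Abcg2 differed from these, at 47.3% and 6 for the second start of Abcc4, 50% and 3 for the first of Abcg2 and 48.0% and 10 for its second. No motif was found in all of them. Abcb1a held TGACNNNGC once, a motif found in 12.4% of all promoters. Abcb1b held ACGTG once (19.6% of promoters), CCAAT at 2 places (37.4%) and GGGCGG once (35.7%). Abcb4 held GCGTG (32.4% of promoters), CCAAT and GGGCGG once each. Abcc4 held GGGCGG at 3 places, GCGTG at 2, TGACNNNGC once and the palindrome CACGTG, which counts as 2 matches to ACGTG because it reads the same on both strands. Abcg2 held GGGCGG at 4 places and GCGTG once, and Abcc5 held none of the 5 motifs. Of the promoters not printed, that of Abcb6 held CCAAT once and GGGCGG at 2 places, the second start of Abcc4 held TGACNNNGC once, the first of Abcg2 held no match and its second held CCAAT once and GGGCGG at 2 places. These are matches of letters in 1 window, given as a description.

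Abcb4 had the lowest DC level relative to CC of the 8 genes, and its RC level lay between them. It encodes the floppase that moves phosphatidylcholine to the outer leaflet of the membrane, known from bile secretion. Its log2 values were 10.41, 10.41, 10.21 and 10.45 on the RC arrays, 9.86, 9.76, 9.87 and 9.77 on the DC arrays, and 10.79, 10.82, 10.73 and 10.79 on the CC arrays. The 3 conditions did not overlap, with every DC array lowest and every CC array highest. The mean was 10.37 ± 0.11 in RC, 9.82 ± 0.06 in DC and 10.78 ± 0.04 in CC (SD, n = 4 each). DC was 0.97 below CC on the log2 scale (a difference of -0.97 ± 0.06, SE; 95% interval -1.10 to -0.83), which is 1.95-fold lower. RC was 0.55 above DC (95% interval 0.42 to 0.69) and differed from CC by -0.41 (-0.55 to -0.27).

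**Figure D1:**
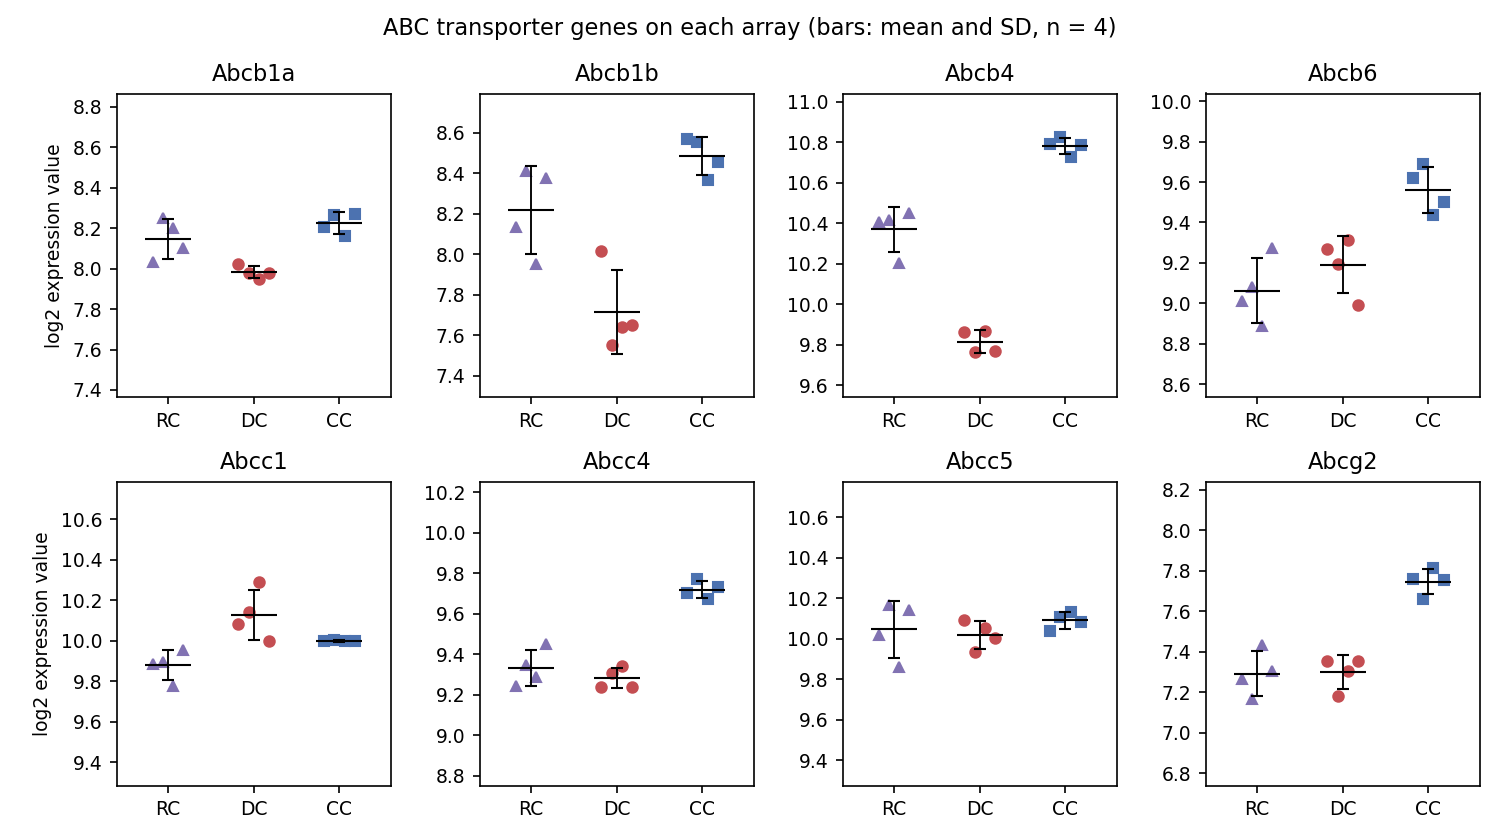
Log2 expression values of the 8 ABC transporter genes on each array, by condition (RC, DC, CC), with the mean and SD of 4 arrays as black bars, on axes of equal span that do not start at 0. The DC points of Abcb4 and Abcb1b lie below all points of CC, while the points of Abcc5 overlap between the conditions and the mean of Abcc1 is highest in DC.

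Abcb1a and Abcb1b encode the rodent P-glycoproteins, broad exporters of hydrophobic drugs. The sequences of the genes are so alike that probes of one may also pick up the other, which was not tested. Abcb1b read 8.14, 8.41, 7.95 and 8.38 on RC, 8.02, 7.55, 7.64 and 7.65 on DC, and 8.57, 8.55, 8.37 and 8.46 on CC arrays. All DC arrays lay below all CC arrays, and DC 1 stood above the other 3 DC arrays and above RC 3. The Abcb1b means were 8.22 ± 0.22 in RC, 7.72 ± 0.21 in DC and 8.49 ± 0.09 in CC. DC differed from CC by -0.77 ± 0.12 (95% interval -1.03 to -0.51; 1.71-fold lower), RC from DC by 0.50 (0.25 to 0.76) and RC from CC by -0.27 (-0.52 to -0.01). Abcb1b had the widest spread of the 8 genes within both RC and DC.

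Abcb1a showed a smaller difference. Its values were 8.03, 8.25, 8.20 and 8.10 on RC, 8.02, 7.98, 7.95 and 7.98 on DC, and 8.20, 8.27, 8.16 and 8.27 on CC arrays. The DC arrays lay below those of both other conditions, with a gap to the lowest RC array smaller than the RC spread, and RC overlapped CC. Means were 8.15 ± 0.10 in RC, 7.98 ± 0.03 in DC and 8.23 ± 0.05 in CC, and DC differed from CC by -0.24 ± 0.06 (95% interval -0.37 to -0.11; 1.18-fold lower). RC differed from DC by 0.16 (0.03 to 0.29) and from CC by -0.08 (-0.21 to 0.05), so RC was not distinguished from CC.

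Abcg2 encodes a dimeric exporter of urate, porphyrins, dyes and many drugs, known as a marker of side-population cells. It read 7.27, 7.17, 7.43 and 7.30 on RC, 7.36, 7.18, 7.31 and 7.36 on DC, and 7.76, 7.66, 7.81 and 7.76 on CC arrays. RC and DC arrays were mixed and both lay wholly below CC. Its mean was 7.29 ± 0.11 in RC, 7.30 ± 0.08 in DC and 7.75 ± 0.06 in CC. DC differed from CC by -0.45 ± 0.07 (95% interval -0.60 to -0.30; 1.36-fold lower) and RC from CC by -0.46 (-0.61 to -0.31), while RC and DC differed by -0.01 (-0.16 to 0.14). No detection calls were used here, so how far these low values stand above background is not known.

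Abcb6 encodes a porphyrin transporter found in membranes of mitochondria and lysosomes. Its values were 9.01, 9.08, 8.89 and 9.27 on RC, 9.27, 9.19, 9.31 and 8.99 on DC, and 9.62, 9.69, 9.44 and 9.50 on CC arrays. All RC and all DC arrays lay below all CC arrays, and RC overlapped DC. Means of 9.06 ± 0.16 in RC, 9.19 ± 0.14 in DC and 9.56 ± 0.11 in CC gave differences of -0.37 ± 0.10 for DC against CC (95% interval -0.58 to -0.16; 1.29-fold lower), -0.50 (-0.70 to -0.29) for RC against CC and -0.13 (-0.34 to 0.08) for RC against DC. The DC difference shrank to -0.23 when the interquartile range of the arrays entered the fit as a covariate, and its call was lost there (adjusted p = 0.075 by limma).

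The 3 Abcc genes encode the multidrug resistance proteins that carry organic anions. Abcc4 exports cyclic nucleotides, prostaglandins and urate, and read 9.24, 9.35, 9.29 and 9.45 on RC, 9.24, 9.31, 9.34 and 9.24 on DC, and 9.70, 9.77, 9.67 and 9.73 on CC arrays. RC and DC arrays overlapped, with RC 2 and RC 4 above every DC array, and both conditions lay wholly below CC. Its mean was 9.33 ± 0.09 in RC, 9.28 ± 0.05 in DC and 9.72 ± 0.04 in CC, with DC against CC at -0.44 ± 0.06 (95% interval -0.57 to -0.31; 1.35-fold lower), RC against CC at -0.39 (-0.51 to -0.26) and RC against DC at 0.05 (-0.08 to 0.18).

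Abcc5 also exports cyclic nucleotides. It read 10.02, 10.17, 9.86 and 10.14 on RC, 10.09, 9.93, 10.05 and 10.00 on DC, and 10.04, 10.11, 10.13 and 10.08 on CC arrays. The 3 conditions overlapped, with means of 10.05 ± 0.14 in RC, 10.02 ± 0.07 in DC and 10.09 ± 0.04 in CC. DC differed from CC by -0.07 (95% interval -0.23 to 0.08), so a fall as large as that of Abcc4 lies outside the interval.

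Abcc1 exports glutathione conjugates and leukotrienes. Its values were 9.88, 9.90, 9.78 and 9.95 on RC, 10.08, 10.14, 10.29 and 10.00 on DC, and 10.00 on each of the 4 CC arrays. In all, 3 CC arrays and DC 4 carried the identical value to all deposited digits, which left a CC SD of 0.003 that is no usual spread, and 2.99% of all rows had a value repeated on 4 or more arrays. Its mean was 9.88 ± 0.07 in RC and 10.13 ± 0.12 in DC, and every RC array lay below every DC and every CC array. DC was 0.13 above CC (95% interval -0.02 to 0.28), RC differed from DC by -0.25 (-0.40 to -0.10) and from CC by -0.12 (-0.27 to 0.03).

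By the order of their condition means, Abcb4, Abcb1b, Abcb1a, Abcc4 and Abcc5 had DC lowest, RC between and CC highest. RC was above DC by only 0.05 ± 0.06 (SE) for Abcc4 and 0.03 ± 0.07 for Abcc5, and their RC and DC arrays overlapped. For Abcb4 all 3 neighbours in that order were separated, whereas RC of Abcb1a overlapped CC, and RC of Abcb1b overlapped both CC (RC 2 and RC 4 above CC 3) and DC (RC 3 below DC 1). For Abcg2, Abcb6 and Abcc4, RC and DC lay together below CC. The array RC 3 was the lowest RC array for 5 of the 8 genes and the highest for Abcg2, and CC 3 was the lowest CC array for 5. Without RC 3, the RC against DC difference was 0.61 for Abcb4 and 0.59 for Abcb1b.

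**Figure D2:**
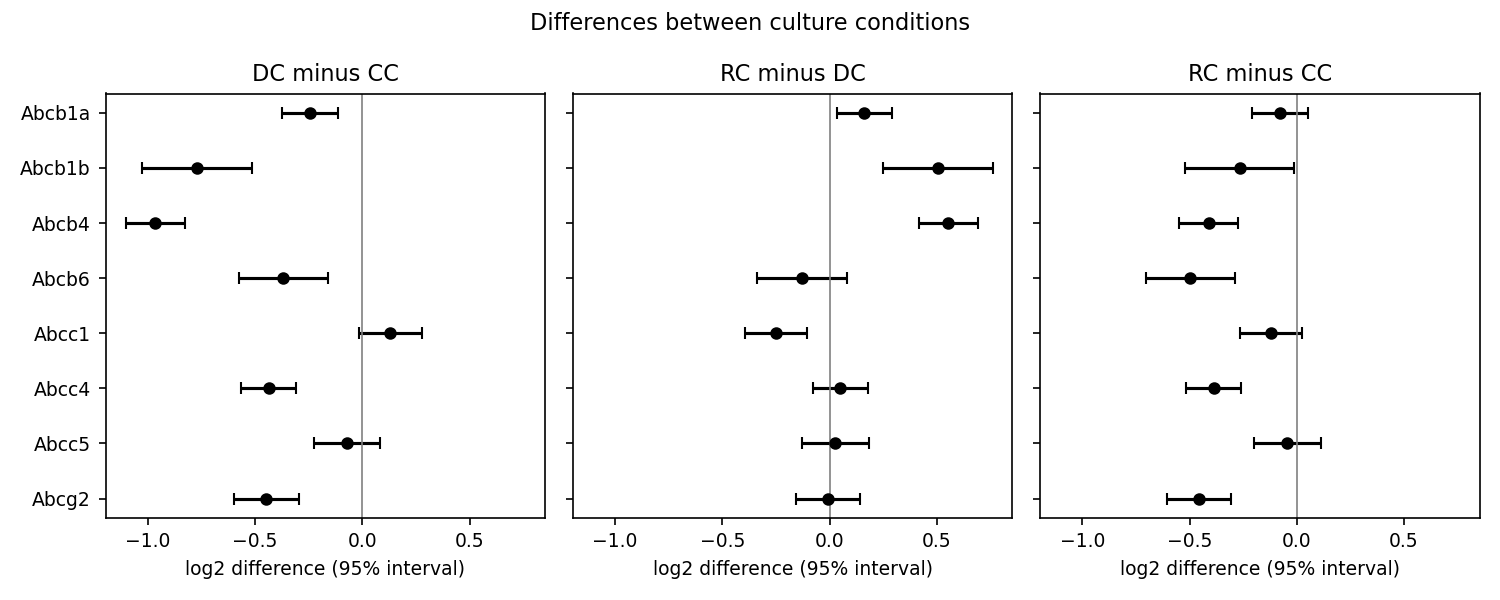
Differences of condition means on the log2 scale for the 8 genes, with 95% intervals of the linear model, for DC against CC, RC against DC and RC against CC. Abcb4 and Abcb1b lie below 0 in DC against CC and above 0 in RC against DC, whereas Abcg2, Abcb6 and Abcc4 lie near 0 in RC against DC and below 0 in RC against CC.

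Counted at a Benjamini-Hochberg adjusted p of 0.05 over all rows (limma), the fit called 6 of the 8 lower in DC than in CC and 0 higher, where it called 4.32% of all rows lower and 2.31% higher. On 6 of the 8, all DC arrays lay below all CC arrays, a pattern that 7.96% of rows showed. This comparison chose the genes, so their count there is a description. RC against DC shares the DC arrays with it and RC against CC the CC arrays, and their counts are given side by side on the same terms. In RC against DC, 2 of 8 were called higher (Abcb4 and Abcb1b) and 0 lower, beside 1.45% and 1.18% of all rows, and in 2 (Abcb1a and Abcb4) all RC arrays lay above all DC arrays, as in 3.06% of rows. In RC against CC, 4 of 8 were called lower (Abcb4, Abcb6, Abcc4 and Abcg2) and 0 higher, beside 0.675% and 0.121% of rows. All RC arrays lay below all CC arrays for these 4 and for Abcc1, as in 5.45% of rows.

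Leaving out single arrays changed these counts. Abcb1a lost its call in DC against CC without CC 1, CC 2, CC 4, DC 2, DC 3 or DC 4. Abcb6 lost its call without CC 1, CC 2, CC 4, DC 2, DC 4, RC 1 or RC 2. Both also lost it with the replicate number as a block and without RC 3, DC 4 and DC 2 together. The DC against CC calls of Abcb4, Abcb1b, Abcc4 and Abcg2 held in every alternative in which the gene was tested (a filter on dim rows left Abcg2 out). Since DC against CC chose the genes, that too is a description and no support. The 4 RC against CC calls became 0 without CC 4 or without RC 1 and 2 without CC 1, CC 2 or CC 3. The RC against DC call of Abcb1b passed in 6 of 21 alternatives, and that of Abcb4 in 21 of 21. Both of these comparisons share arrays with the one that chose the genes, so these figures too are a description and no support.

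The position of RC relative to the midpoint of DC and CC does not reuse the difference that chose the genes while DC and CC count alike, and it was tested. None of the 8 genes passed in either direction by limma, where 0.231% of all rows were called lower and 0.211% higher. At an unadjusted p under 0.05, 4 of the 8 lay below the midpoint and 0 above it, where 7.04% of all rows had such a p in either direction. Those 4 were Abcb6 at -0.31 (95% interval -0.49 to -0.13, adjusted p = 0.183 by limma), Abcg2 at -0.23 (-0.36 to -0.10, adjusted p = 0.164), Abcc1 at -0.19 (adjusted p = 0.328) and Abcc4 at -0.17 (-0.28 to -0.06, adjusted p = 0.296). Abcb4 lay 0.07 above the midpoint (-0.05 to 0.19), Abcb1b 0.12 above (-0.10 to 0.34) and Abcb1a 0.04 above (-0.07 to 0.15). Without RC 3, Abcg2 passed at -0.28 (adjusted p = 0.0362 by limma), in a fit that called 185 of 35556 rows lower and 483 higher. With array weights 2 of the 8 passed lower (Abcg2 and Abcc1) and 1 higher (Abcb4). That fit called 1333 of the 35556 rows lower and 2500 higher, and the CC values of Abcc1 include the tied ones given above. Array weights need not count DC and CC alike, so that fit can reuse part of the difference that chose the genes.

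Abcb1a, Abcb1b and Abcb4 lie side by side on chromosome 5, and the genes on either side did not share their lower DC values. Crot, which encodes peroxisomal carnitine octanoyltransferase and follows Abcb4, rose in DC, to 10.21 ± 0.10 against 9.64 ± 0.11 in CC (a log2 difference of 0.57 ± 0.11, limma adjusted p = 0.00801), and fell in RC against DC (-0.68, adjusted p = 0.00544). Rundc3b, on the other side of Abcb1a, read 9.20 ± 0.13 in DC and 9.03 ± 0.12 in CC (a difference of 0.17, adjusted p = 0.232). Of the 12 nearest measured protein-coding neighbours of the 8 genes that are no members, 1 passed in DC against CC (Crot), and the other differences lay between -0.14 and 0.18. The neighbours were added after the arrays had been examined.

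Among all 51 measured ABC genes, the 8 described here included, 8 fell in DC (15.7%) and 1 rose (1.96%), beside the shares of all rows given above, and the median difference was 0.08 where that of all rows was 0.04. That count includes the 6 chosen genes. Of the other 43, 2 fell (4.65%) and 1 rose (2.33%), near the 4.32% and 2.31% of all rows. The 8 fallen genes sat in subfamily B (5 of 11 measured), in C (1 of 11), in G (1 of 6) and in the E and F subfamilies, which are no transporters (1 of 4), and none in A (16) or D (3). All of them but Tap1 (in B) and Abce1 (in E and F) are chosen genes. The split by subfamily therefore largely follows the choice and is a description. Without CC 1, CC 2 or DC 2 the 8 lower calls became 4. In RC against DC 3 of the 51 rose and 1 fell, beside 1.45% and 1.18% of all rows. In RC against CC 5 fell and 0 rose, beside 0.675% and 0.121% of all rows. These counts also include chosen genes. Of the other 43, 1 rose and 1 fell in RC against DC, and 1 fell and 0 rose in RC against CC.

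Abca1, the exporter of cholesterol and phospholipid to apolipoprotein, was the ABC gene that rose in DC. Its mean was 8.35 ± 0.03 in RC, 9.15 ± 0.21 in DC and 8.48 ± 0.07 in CC, with DC against CC at 0.67 ± 0.09 (limma adjusted p = 0.000571) and RC against DC at -0.80 ± 0.09 (adjusted p = 0.000333). It also fell below the midpoint of DC and CC (-0.47, adjusted p = 0.0229), a call lost without CC 3, CC 4, RC 1, RC 2 or RC 4. Tap1, a subunit of the peptide transporter of antigen presentation, averaged 8.78 ± 0.11 in RC, 8.93 ± 0.10 in DC and 9.22 ± 0.01 in CC. It fell in DC against CC (-0.29 ± 0.07, adjusted p = 0.0247) and in RC against CC (-0.43 ± 0.07, adjusted p = 0.0152), and both calls were lost without any 1 of the 4 CC arrays, the first also without DC 2 or DC 3 and the second without RC 1. Abce1, a ribosome-recycling ATPase, averaged 10.92 ± 0.08 in RC, 10.58 ± 0.07 in DC and 10.88 ± 0.13 in CC. It fell in DC (-0.30 ± 0.07, adjusted p = 0.0265; lost without CC 1, CC 2, DC 2 or DC 4) and was higher in RC than in DC (0.34 ± 0.07, adjusted p = 0.0268; lost without any of 6 arrays, DC 2 to DC 4 and RC 1, RC 2 and RC 4).

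**Figure D3:**
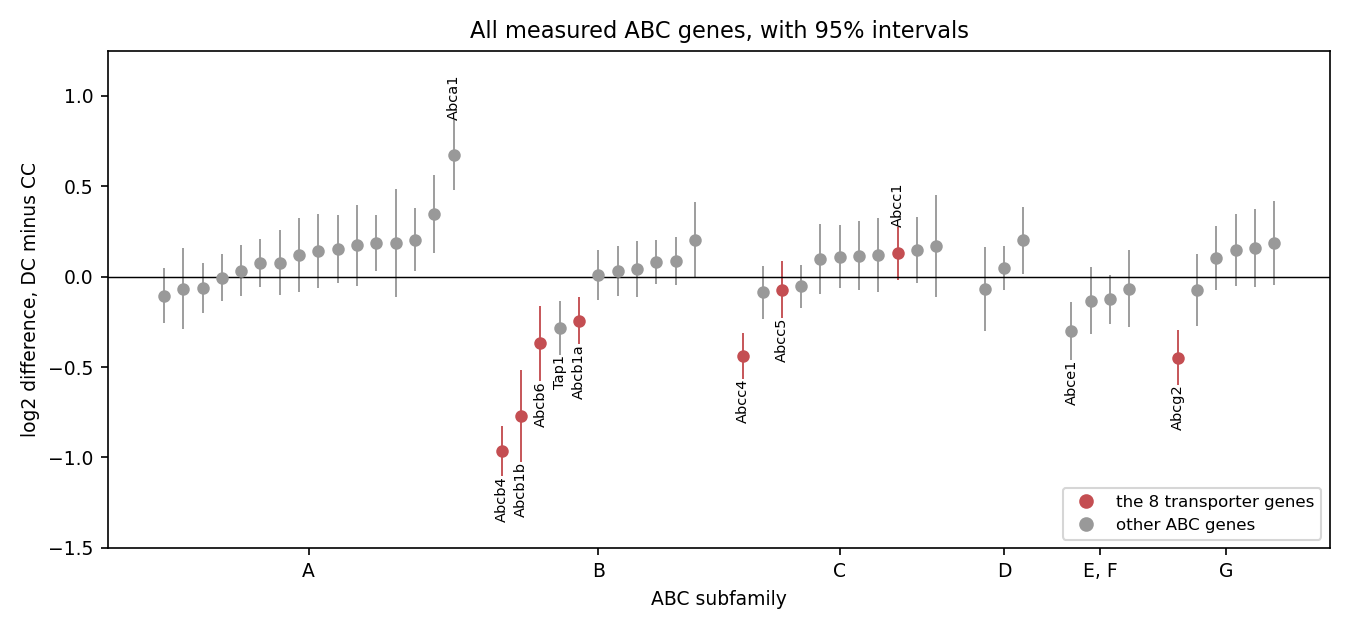
Log2 difference of DC minus CC with its 95% interval for each of the 51 measured ABC genes, sorted within each subfamily, with the 8 genes described here in red and the others in grey. Abcb4 and Abcb1b have the lowest values, and Abca1 in subfamily A the highest.

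Other genes around drug and metabolite transport were counted from lists of known function. Organic ion carriers of the solute carrier class had 6 of 22 measured members lower in DC and 1 higher, with a median difference of 0.00 where that of all rows was 0.04. Slco1a5, an organic anion uptake carrier, averaged 7.91 ± 0.06 in RC, 7.30 ± 0.16 in DC and 8.26 ± 0.06 in CC, and fell in DC by 0.96 on the log2 scale (-0.96 ± 0.08, limma adjusted p = 1.51e-05). Slc22a23, an orphan carrier, averaged 10.72 ± 0.08 in RC, 10.15 ± 0.09 in DC and 11.01 ± 0.04 in CC (DC against CC -0.87 ± 0.06, adjusted p = 6.78e-06). Both were higher in RC than in DC, Slco1a5 by 0.62 (adjusted p = 0.00092) and Slc22a23 by 0.58 (adjusted p = 0.000307).

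Slc29a1, the equilibrative nucleoside transporter, fell in DC (-0.53, adjusted p = 0.00094 by limma), as did Slco5a1 (-0.53, adjusted p = 0.00022). Both also fell in RC against CC, Slc29a1 by -0.47 (adjusted p = 0.0168) and Slco5a1 by -0.36 (adjusted p = 0.0264). The RC against CC call of Slc29a1 was lost without CC 3, CC 4, RC 1 or RC 2, and that of Slco5a1 without any 1 of the CC arrays, RC 1 or RC 2. Slc47a1, a proton-coupled exporter of organic cations, rose in DC (0.26, adjusted p = 0.0198), a call lost without CC 1, CC 2, DC 2, DC 3 or DC 4.

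Lipid flippases and scramblases, which move phospholipids across the membrane as Abcb4 does, had 4 of 18 measured members lower in DC and 0 higher (median -0.16). Ano6, a calcium-activated scramblase, averaged 10.68 ± 0.18 in RC, 10.56 ± 0.10 in DC and 11.22 ± 0.07 in CC (DC against CC -0.67 ± 0.09, limma adjusted p = 0.000532). The P4-ATPases Atp10a and Atp9a fell in DC by -0.64 ± 0.09 (adjusted p = 0.000925) and -0.63 ± 0.09 (adjusted p = 0.000886). Ano6 also fell in RC against CC (-0.55, adjusted p = 0.0174), which was lost without CC 1, CC 2, CC 4, RC 1 or RC 2.

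Among 12 scaffold and membrane-domain genes, 2 fell in DC and 0 rose, with a median of 0.00. Cav1, the structural protein of caveolae, averaged 8.21 ± 0.11 in RC, 7.97 ± 0.16 in DC and 9.21 ± 0.06 in CC, 2.35-fold lower in DC than in CC (-1.23 ± 0.08, limma adjusted p = 3.45e-06) and 2.00-fold lower in RC than in CC (adjusted p = 0.000344). Its partner Cav2 averaged 8.83 ± 0.15 in RC, 8.29 ± 0.31 in DC and 9.41 ± 0.13 in CC (DC against CC -1.11 ± 0.13, adjusted p = 0.000301).

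Enzymes that modify the cargo of these pumps were counted next. Of 26 measured conjugating enzymes, 3 rose in DC and 0 fell (median 0.13), all of them glutathione S-transferases, whose products Abcc1 is known to export. For comparison, the medians of the cell type marker lists were 0.14 (endothelial), 0.17 (fibroblast), 0.17 (immune), 0.12 (exocrine), 0.05 (hepatocyte) and -0.01 (beta cell). Gstm1 averaged 9.52 ± 0.17 in RC, 10.53 ± 0.28 in DC and 9.21 ± 0.14 in CC, 2.49-fold higher in DC than in CC (1.32 ± 0.13, limma adjusted p = 7.61e-05), and was lower in RC than in DC (-1.01 ± 0.13, adjusted p = 0.00117). Gstt1 rose in DC by 0.38 (adjusted p = 0.00716) and Gstt2 by 0.35 (adjusted p = 0.00433). Of 14 genes of glutathione synthesis and reduction, 1 rose in DC, Glrx, by 0.42 (adjusted p = 0.0357), a call lost without any of 8 arrays (the 4 of CC, DC 1, DC 3, DC 4 and RC 4).

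Among 22 oxidising and hydrolysing enzymes (median 0.11), 2 fell in DC and 1 rose. Ephx1, the microsomal epoxide hydrolase, averaged 8.82 ± 0.19 in RC, 8.92 ± 0.21 in DC and 10.07 ± 0.13 in CC (DC against CC -1.15 ± 0.12, limma adjusted p = 8.67e-05; RC against CC -1.25 ± 0.12, adjusted p = 0.000489). Its RC level lay 0.67 below the midpoint of DC and CC (-0.67, adjusted p = 0.0149; lost without RC 1 or RC 2). Cyp2u1, a fatty acid hydroxylase, fell in DC by -0.33 (adjusted p = 0.00249). Nqo1, a quinone reductase, averaged 8.11 ± 0.17 in RC, 8.73 ± 0.23 in DC and 8.08 ± 0.26 in CC and rose in DC (0.65 ± 0.14, adjusted p = 0.0149), a call lost without CC 4.

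A further list held sensors of xenobiotics or oxidants together with hormone receptors and other regulators. Of its 17 measured genes 1 rose in DC, the oestrogen receptor Esr1 (0.65 ± 0.10, limma adjusted p = 0.00117), and 0 fell. Nr1i2 (0.12, adjusted p = 0.334), Ahr (0.08, adjusted p = 0.572) and Nfe2l2 (-0.25, adjusted p = 0.156) did not pass. Haem synthesis and transport, from which the porphyrin cargo of Abcb6 and Abcg2 comes, had 2 of 19 genes lower in DC and 2 higher (median -0.03), among them the haem exporter Flvcr1 (-0.29, adjusted p = 0.0079) and Flvcr2 (0.27, adjusted p = 0.0174; lost without CC 1, CC 2 or DC 2). Of 18 phosphodiesterases, which degrade the cyclic nucleotides that Abcc4 and Abcc5 export, 2 fell and 0 rose in DC (median -0.01), Pde8a by -0.42 (adjusted p = 0.0154; lost without DC 2) and Pde2a by -0.36 (adjusted p = 0.00105).

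**Figure D4:**
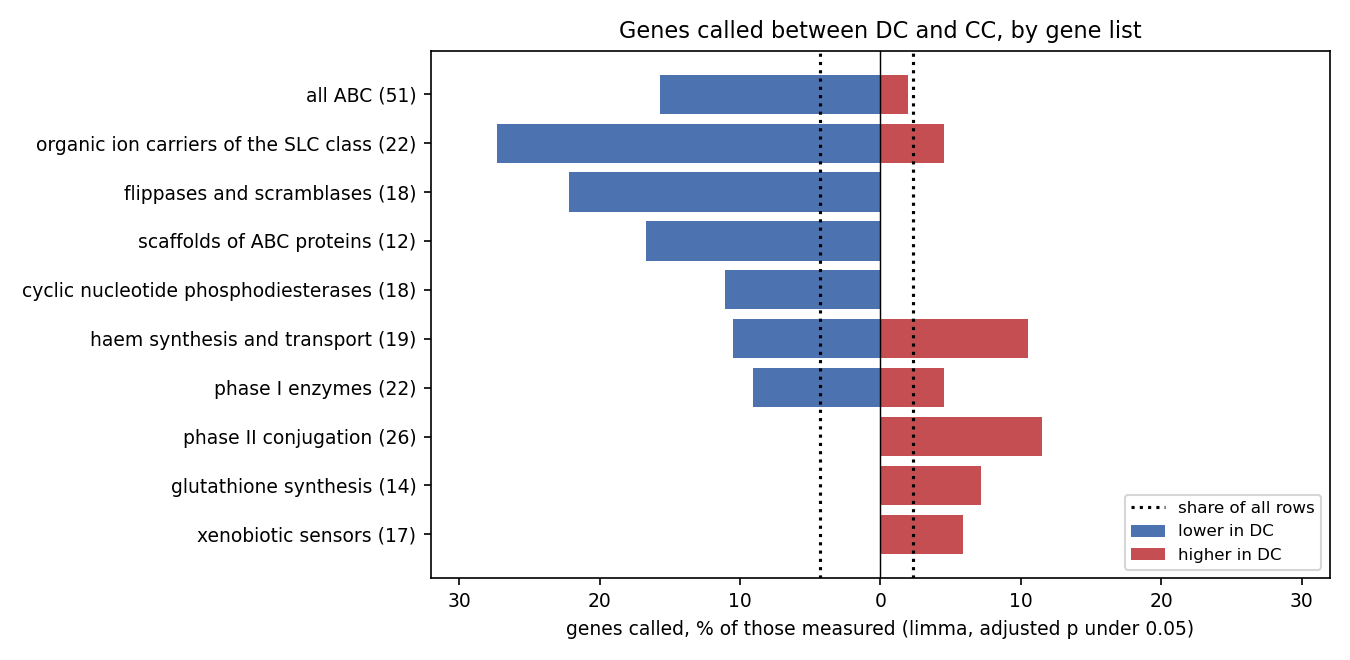
Share of the measured genes of each list (number in brackets) that limma called lower in DC (bars to the left) or higher in DC (bars to the right) than in CC, in percent, with dotted lines at the shares of all rows, 4.32% lower and 2.31% higher. Of the lists drawn, the organic ion carriers have the longest bar to the left (27.3%) and the conjugating enzymes the longest to the right (11.5%), and these bars rest on 6 of 22 and 3 of 26 genes. The list of all ABC genes includes the genes chosen by this comparison. Of the other 43 ABC genes, 4.65% were called lower and 2.33% higher.

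The mean standardised profile of the 8 genes over the 12 arrays was set against every other named gene with a mean above the median of all values, as a description. The most alike were Ube4a (Pearson r = 0.979 over 12 arrays), Qars (0.973), Tor1b (0.972), Ttc17 (0.970), Tm9sf4 (0.969) and Erap1 (0.966). Ube4a, the closest, averaged 10.52 ± 0.12 in RC, 10.44 ± 0.10 in DC and 10.80 ± 0.03 in CC. Of the 8 genes themselves, Abcc4 lay closest to their common profile (r = 0.957) and Abcc1 farthest from it (0.00), with Abcb6 at 0.890, Abcb4 at 0.876, Abcb1b at 0.854, Abcg2 at 0.802, Abcb1a at 0.721 and Abcc5 at 0.628. All points share the same 12 arrays and the same condition means, and each of the 8 is part of the profile it is set against.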

How the data were processed

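Total RNA of Min6 cells was labelled with biotin and hybridised to 12 Affymetrix Mouse Gene 1.0 ST arrays, per the labels' protocols. The table holds the authors' deposited log2 values, 1 for each of 35556 rows (probe sets) per array; the log2 scale was inferred from values of 3.69 to 14.5. Summarisation, normalization and build: not given in the sources used here. Rows were named through the platform annotation (21789 with 1 symbol, 1621 with several, 12146 with none), and 21698 were matched by identifier to RefSeq genes of GRCm38.p6, changing 0 symbols. A total of 476 rows repeat an earlier row. The number of arrays limits the precision.

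All 12 arrays entered 1 linear model with a mean for each condition (limma 3.58.1 in R 4.3.3, 9 residual degrees of freedom), two-sided, with Benjamini-Hochberg adjustment over all rows and a threshold of 0.05. Differences carry moderated standard errors and levels the SD of 4 arrays. The fit was tested on simulated data with independent normal noise in each row, which hold no shifts of whole arrays and no tied values. For a gene with several rows, the row of highest mean was used. Named were all members, up to 6 other called ABC genes with the largest change per comparison, up to 3 called genes per list, the 6 genes most like the members, and genes where a count was 5 or fewer; Nr1i2, Ahr, Nfe2l2, Crot, Rundc3b and the called cell type markers were chosen otherwise. The members, the 15 pathway lists and the tests were chosen with earlier results of these data known. Alternatives were other normalizations, an interquartile-range covariate, array weights, a filter on dim rows, only the groups compared, a replicate block and leaving out arrays. Protein sequences were not used here. Some ABC genes and list members were not analysed here.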

Additional observations from a re-analysis of the deposited data

Results flagged for a closer look

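Abcc1 on the array CC 2 stood apart from the other CC arrays, at a log2 value of 10.0027 where the other 3 all read 9.99631. Its gap to the nearest of them is the whole range of the group, because those 3 values are identical. The same value occurs on DC 4. Of 24 groups of 4 arrays (8 genes in 3 conditions), 1 stood apart in this way. Among groups of untied values chance would give about 1 in 20, a rate that does not apply to a group with 3 tied values. The size of the gap is far below the SD of Abcc1 in RC (0.07) or DC (0.12). Why the value repeats was not tested.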

How the results depend on the processing

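The 6 genes with a called difference kept its direction in all alternatives run. For DC against CC, which chose the genes, this is a description. Abcc1 and Abcc5 had no call in the main fit, and the DC against CC difference of Abcc5 ran from -0.12 to 0.006 over the alternatives. Of the values of the 8 genes under alternatives, 596 kept their side of the threshold, 54 lost it and 10 gained it. The Abcb6 call in DC against CC reached an adjusted p of 0.159 by limma and that of Abcb1a 0.113. For other named genes, 2433 values kept their side, 202 lost it and 84 gained it, under the same alternatives, extended to them after seeing the data. No detection calls were used, so signal over background limits what low rows such as Abcg2 can show. The row counts moved most with array weights. The replicate numbers do not pair the arrays (same-numbered deviations correlated at -0.36 to 0.47, others at -0.45 to 0.53), so no pairing is claimed.

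In DC against CC, 2360 rows were called (823 higher and 1537 lower; 502 and 1698 with arrays centred on a common median, 1203 and 1253 once each array's interquartile range was a covariate), 4840 with array weights and 1549 to 3718 with 1 array left out. Lower ABC genes numbered 8, 5 with the replicate block, 4 without the 3 arrays of narrowest interquartile range and 4 to 8 with 1 array left out, and higher ones 1, 2 without those 3 arrays and 1 to 2 with 1 left out. Lower members numbered 6, and 4 to 6 with 1 array left out.

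In RC against DC, 936 rows were called (516 higher, 420 lower; 1981 and 911 without RC 3), 1737 with the interquartile range as a covariate, 462 with only the groups compared, 6413 with array weights and 522 to 2892 with 1 array left out. Of 3 higher ABC genes and 2 higher members, 1 and 1 were left with a common median, with only the groups compared, with the replicate block or without the 3 narrow arrays, and 1 member with quantile normalization; leaving out 1 array gave 1 to 3 and 1 to 2. The 1 lower ABC gene became 3 with quantile normalization or the covariate and 7 with array weights (1 to 3 with 1 array left out), and the 0 lower members became 1 under each of these (0 to 1).

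In RC against CC, 283 rows were called (43 higher, 240 lower; 24 and 335 with a common median, 272 and 364 with the covariate, 1477 and 1341 with array weights, 239 and 341 without the 3 narrow arrays, 118 and 193 without RC 3), 636 with the covariate, 2818 with array weights, 439 with bright rows only, 68 with the replicate block, 580 without the 3 narrow arrays and 57 to 352 with 1 array left out. The 5 lower ABC genes became 11 with array weights and 1 with the replicate block (0 to 6 with 1 array left out), and the 4 lower members became 1 with the replicate block (0 to 4).

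For RC against the midpoint, 157 rows were called (75 higher, 82 lower; 34 and 72 with a common median, 2500 and 1333 with array weights, 325 and 187 without the 3 narrow arrays, 483 and 185 without RC 3, 86 and 146 without DC 4, 20 and 38 without RC 4), 630 with the covariate, 3833 with array weights, 59 with the replicate block, 512 without the 3 narrow arrays and 37 to 668 with 1 array left out. The 1 lower ABC gene became 2 with quantile normalization, 4 with the covariate, 10 with array weights, 3 with bright rows only or without the narrow arrays and 0 with the replicate block (0 to 3 with 1 left out). Higher ABC genes numbered 0, 1 with the covariate and 2 with array weights. The 0 lower members became 1 with the covariate or without the narrow arrays and 2 with array weights (0 to 1 with 1 left out), and the 0 higher members became 1 with array weights. This comparison needs all 3 groups, so no fit with only the groups compared was made. With the covariate, with array weights or without arrays of DC or CC, these groups need not count alike. The comparison can then reuse part of the difference that chose the genes. The causes were not tested.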
